A study of Mus musculus with 9 samples.

Results

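The transcriptome of the normal mouse testis was described from the 3 wild-type (WT, Pfn3+/+) animals of a series of 9 testis libraries, chosen by their labels alone. The series was made to study profilin 3, an actin-binding protein of spermatids, and its other 6 libraries, from heterozygous and knockout testes, were not used here. The WT mice were males of the C57BL/6 strain with no treatment. Whole testis without its capsule, the tunica albuginea, was extracted, so that each library mixes germ cells of all stages with somatic cells. Males of 2 to 6 months were used throughout the study, and the exact age and breeding line of the 3 mice were not given with the libraries. RNA was read with QuantSeq, a 3′ method in which each polyadenylated transcript gives reads from near its end, so that levels were not divided by transcript length. Levels are given as normalised reads, that is, gene counts divided by 1 size factor per animal.

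WT1, WT2 and WT3 held 3375546, 4232041 and 4092798 reads on genes, which are counts derived from coverage. Of the 38674 genes listed, 22526 had at least 1 read in a WT animal, and 13905 had a mean of at least 10 normalised reads. Detection was taken to begin above 3 reads per library, a limit that equalled 3.71 normalised reads in WT1, 2.89 in WT2 and 2.90 in WT3 and covers counting error only. WT1 stood apart from the others. Over the 13905 genes, Pearson's r of log2(normalised reads + 1) was 0.920 between WT2 and WT3, but 0.752 between WT1 and WT2 and 0.755 between WT1 and WT3; these correlations run across genes, which are not independent replicates. Values that rest most on WT1 are therefore given by animal or also without it. Leaders of gene families are mostly given as means over all 3 animals, which WT1 can raise or lower. Pfn3 itself, the gene deleted elsewhere in the series, was present in all 3 animals at 592, 383 and 373 normalised reads.

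In the testis, spermatogonia divide and enter meiosis as spermatocytes, which yield haploid round spermatids. Round spermatids elongate, replace their histones first by transition proteins and then by protamines, and build an acrosome and a tail. Sertoli cells nurse the germ cells inside the tubules, and Leydig cells between the tubules make testosterone. Many housekeeping enzymes have a second gene that is used mainly by germ cells.

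The most abundant transcripts encoded the proteins that pack the DNA of the sperm head. Prm1, protamine 1, ranked first with 84544, 112269 and 104467 normalised reads in WT1, WT2 and WT3, a mean of 100427 ± 14297 (SD, n = 3) that made up 2.47% of all reads. Tnp1, transition protein 1, followed with 62238, 69647 and 61857. Prm2, protamine 2, held 54683, 41374 and 39826, and Tnp2, transition protein 2, held 32383, 26072 and 27139. In all 3 animals, Prm1 lay above Prm2 and Tnp1 above Tnp2. The ratio of Prm2 to Prm1 was 0.647 in WT1, 0.369 in WT2 and 0.381 in WT3, so that WT1 held more Prm2 for its Prm1 than the others.

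Prm1, Prm2, Prm3 and Tnp2 lie side by side on chromosome 16 (GRCm38, minus strand), within 17904 bases (10787936 to 10805839). Prm3, whose product is an acidic protein named after the protamines, had a mean of 5255 ± 489 normalised reads (n = 3), 0.0535 times the level of Prm1. The 4 genes of this cluster together took 4.24%, 4.53% and 4.46% of the reads of WT1, WT2 and WT3, and their summed share varied less between the animals (4.41% ± 0.149) than the ratio of its members. Tnp1 lies on chromosome 1 (73015074 to 73015909, minus strand).

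To show the start regions of the highest genes, the RefSeq promoters (GRCm38.p6, 250 bases before to 50 bases after the start) were searched on both strands for TGANNTCA, the palindrome of cAMP response elements with a free centre; CREM, a factor of this family, is known for its role in spermatids. Of the 20 nuclear genes among the 25 highest, 16 had a promoter in the table, and 4 of these (25%) held a match: Prm1, Tnp1, Gsg1 and Ubb. Among the 100 highest genes, 18 of 68 promoters (26.5%) held it, against 4304 of 27025 genes in the whole table (15.9%). The starts are those of RefSeq. For Prm1, Tnp1 and Gsg1 they lie inside the longer gene spans given by GENCODE, and farthest inside for Prm1. Windows of 30 bases are shown for the 3 germ-cell genes among these, with the match in capitals, because these genes rank 1, 2 and 9 in the testis; each reads 5′ to 3′ along the gene.
Prm1, chr16:10796869-10796898, minus strand, match 64 bases before the start: ctggtcctcttTGACTTCAtaattcctagg
Tnp1, chr1:73015975-73016004, minus strand, match 94 bases before the start: gcaaaggttagTGATGTCAcaagagagctg
Gsg1, chr6:135254353-135254382, minus strand, match 35 bases before the start: gcctgctactgTGACATCAcagaatgaagt
Gsg1, chr6:135254340-135254369, minus strand, match 22 bases before the start: acatcacagaaTGAAGTCAtagtaacccat
The full element TGACGTCA, a case of the same palindrome, was in none of the 16 promoters, in 4.41% of those of the 100 highest genes and in 2.03% of all genes. Genes with a mean of at least 10 normalised reads held TGANNTCA in 14.4% and TGACGTCA in 3.58% of their promoters, and genes without a read in any WT animal held them in 16.3% and 0.895%. The Sp1 box GGGCGG, also searched on both strands, was held by 68.8% of the promoters of the 25 highest genes, 69.1% of the 100 highest, 63.1% of genes with a mean of at least 10, 19.1% of genes without a read and 38.2% of all. TATAAA was held by 25%, 14.7%, 9.08%, 25.8% and 15.7% of the same groups, in the same order. These matches describe letters and not bound sites.

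Below the nuclear packing proteins, the 25 highest genes included enzymes, tail and acrosome proteins and mitochondrial transcripts. Ldhc, the lactate dehydrogenase of germ cells, showed 799.8 normalised reads in WT1, 28984 in WT2 and 25592 in WT3. WT1 was thus far below the other animals, and without it Ldhc rose from rank 8 to rank 6 with a mean of 27288. Gsg1, a germ-cell gene named after its expression, held 25915, 13049 and 12090 normalised reads. Crisp2, a cysteine-rich secretory protein of the acrosome and tail, held 23331, 11851 and 12187. Both were about as high in WT2 as in WT3 and higher in WT1. Fabp9, the fatty acid-binding protein of the sperm perforatorium, had a mean of 14003 ± 2912 and Dbil5, a germ-cell relative of the acyl-CoA-binding proteins, of 12642 ± 4186 normalised reads (n = 3).

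Tcte3, a dynein light chain of the sperm tail, had a mean of 11197 ± 1296 normalised reads, and Tuba3b, an alpha-tubulin, of 10260 ± 2345. Ccdc136, a coiled-coil protein of the acrosome region, had a mean of 8829 ± 1803. Genes used in many tissues stood beside them. Hsp90aa1, a cytosolic chaperone, had a mean of 14262 ± 4270, Ubb, ubiquitin B, of 9766 ± 1463 and Pebp1, a phosphatidylethanolamine-binding protein, of 8970 ± 3067. Lyar, a nucleolar protein, had a mean of 12290 ± 1673, and the unnamed coding gene Gm5617 of 9065 ± 2634. The 5 mitochondrial members were mt-Nd4 with a mean of 21886 ± 4642, mt-Atp8 with 15145 ± 1425, mt-Nd1 with 12198 ± 570, mt-Rnr2 with 11158 ± 2706 and mt-Co1 with 8384 ± 2426. AY036118 and Gm42418 are non-coding and are described with the gene types.

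**Figure D1:**
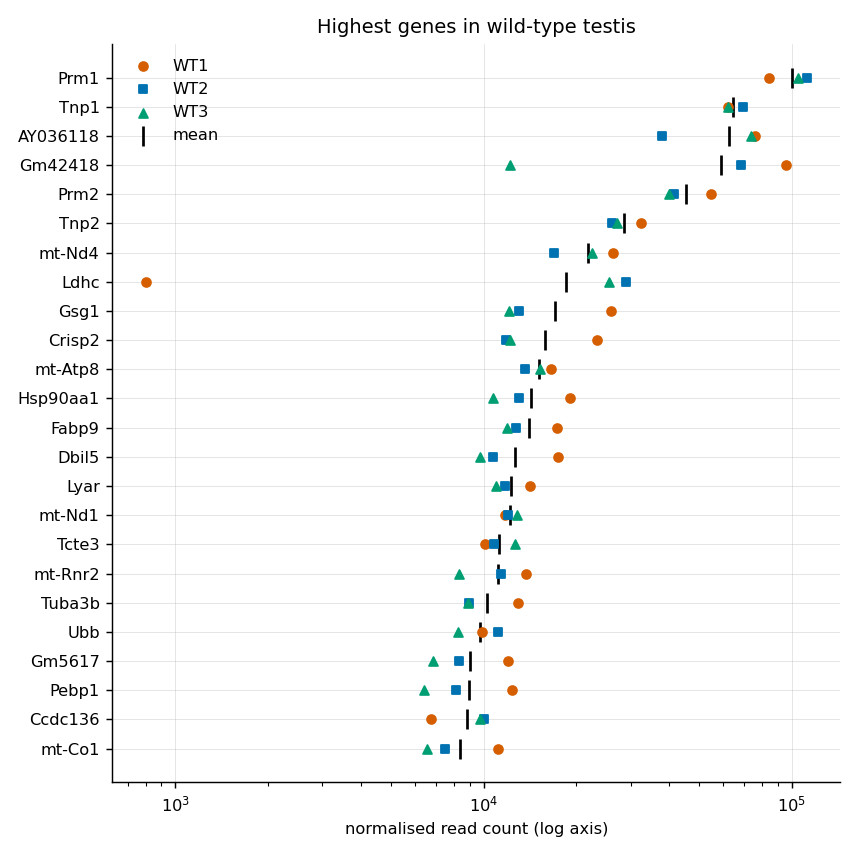
Normalised reads (horizontal log axis) of 24 of the 25 genes with the highest mean in WT testis, in order of the mean. Orange circles, blue squares and green triangles stand for WT1, WT2 and WT3, and black bars for the mean. Prm1 and Tnp1 lead, Ldhc is at 799.8 in WT1 against 28984 and 25592 in the other animals, and Gm42418 is lowest in WT3 at 12197.

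Of the 25 highest genes of each animal, 24 were shared by WT2 and WT3, 20 by WT1 and WT2 and 19 by all 3. Leaving out WT1 kept 22 of the 25. Division by the length of the longest transcript, which a whole-transcript library would need, would keep 15 of the 25, with Prm1 and Tnp1 still first. The level was only weakly related to length: over 12010 protein-coding genes with a mean of at least 10, Spearman's rho of level and length was -0.133. The 100 highest coding genes of the nucleus had a median length of 1529 bases against 3257 for all these genes, and 12% of them had a single exon against 2.97%.

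A small number of genes held most of the reads. The highest gene accounted for 2.47% ± 0.393 of the reads (SD, n = 3), the 10 highest for 10.6% ± 0.820, the 100 highest for 24.3% ± 2.13 and the 1000 highest for 57.9% ± 2.75. By its own order, WT1 needed 515 genes to reach 50% of its reads, WT2 674 and WT3 713. WT1 was thus the most concentrated of the 3 libraries. By level, the 20 highest genes held 13.7% of the reads, the next 755, with a mean down to 1000 normalised reads, held 39.3%, and the 5055 with a mean of 100 to 1000 held 38.3%. The 8075 genes between 10 and 100 held 8.12%, and the 6018 between 1 and 10 held 0.603%. A further 16148 genes had no read in any WT animal.

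By the type column of the table, protein-coding genes took 89.9%, 91.9% and 92.4% of the reads of WT1, WT2 and WT3. Of 21019 protein-coding genes, 16289 had a read and 12010 had a mean of at least 10. Long non-coding RNAs (lncRNA) took 8.64%, 6.85% and 6.55%, with a read in 3595 of 8439 genes. Behind these came TEC genes, which the annotation lists as awaiting experimental support (0.360% ± 0.0322, n = 3), small nucleolar RNAs (snoRNA, 0.355% ± 0.0623), mitochondrial ribosomal RNAs (0.349% ± 0.0789) and microRNA genes (0.0781% ± 0.00376). WT1 was lowest in the coding share and highest in the share of lncRNAs.

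Much of the lncRNA share came from a single place. AY036118 (minus strand, 39847113 to 39848035) and Gm42418 (plus strand, 39846958 to 39848788) overlap on chromosome 17, in a stretch known to collect reads of ribosomal RNA repeats. AY036118 held 75739, 38010 and 73855 normalised reads in WT1, WT2 and WT3, and Gm42418 held 95764, 68325 and 12197. The pair did not move together: WT3 was near WT1 for AY036118 and far below it for Gm42418. With Gm26917 beside them (mean 488), they took 4.12%, 2.62% and 2.19% of all reads. Without these 3 genes the lncRNAs took 4.52%, 4.23% and 4.36%, a range narrower than with them.

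The next lncRNAs were Gm10076 with a mean of 4153 ± 1610 normalised reads, Gm11837 with 4087 ± 803 and 1700027A15Rik with 3756 ± 435. 1700027A15Rik runs on the plus strand of chromosome 1 across Tnp1, which lies on the minus strand. Of 1576 lncRNAs with a mean of at least 10, 667 overlapped a protein-coding gene on the opposite strand and 827 overlapped none. Opposite-strand genes are named with this limit, since the sources used here do not state whether the counting used strand.

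Of the signal of snoRNAs with a mean of at least 10, 86.0% belonged to rows that lie inside coding genes. Gm26130 held 7549, 7113 and 5662 normalised reads and lies inside Tcp1, a subunit of the chaperonin that folds actin and tubulin. Snord33, inside Rpl13a, had a mean of 2766 ± 652, and Snord14a, inside Rps13, of 2626 ± 853. These 3 hosts, 2 of them ribosomal protein genes, were not analysed here as rows of their own, and the 3 snoRNA rows held 84.9% of the signal of snoRNAs with a mean of at least 10. Reads of host and snoRNA cannot be told apart at such rows. Snord13, which lies in no coding gene, held 2247, 1276 and 485, and Snora24 held 11.1, 267 and 280.

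The other non-coding classes were low. Mir7234 led the microRNA genes with a mean of 540 ± 62.5 normalised reads, followed by Gm26384 (430), Gm22123 (389), Gm44341 (288) and Mir125a (203). Mature microRNAs carry no poly(A) tail, and the transcripts behind these rows were not resolved here. Gm22123 lies inside the coding gene Purb and Mir125a inside Spaca6, each on the strand of its host. These hosts were not analysed here as rows of their own, and reads of host and microRNA cannot be told apart there. Mir7234 and Gm44341 overlap no coding gene, and Gm26384 overlaps Vmn1r236 on the opposite strand. Among TEC genes, 1700097M23Rik (627), Gm42740 (492), Gm17611 (481), Gm10840 (384) and 1700016A09Rik (341) were highest. Only 2 small nuclear RNAs had a mean of at least 10, Gm22710 (188) and Gm24890 (35.2). The 7SL and 7SK RNAs Rn7s2 (44.9), Rn7s1 (44.7) and Rn7sk (12.9), with Mir1897 (28.2), were among the 5 miscellaneous RNAs with a mean of at least 10, of 73 with a read. Rn7s6 was the other, with 49.5, 5.79 and 4.83 in WT1, WT2 and WT3. Trbc2 (25.8) and Trbv5 (14.6) were the T-cell receptor segments above 10. Among genes without a stated type, Tes3-ps (450), Micalcl (282), Rpl31-ps12 (220), A830010M20Rik (125) and 4930524J08Rik (91.8) were highest. Mitochondrial transfer RNAs took 0.115% of the reads of WT1 against 0.0212% and 0.0185% in the others. mt-Ts1 held 3498, 478 and 451 and mt-Te 701, 92.6 and 129, so that WT1 was above the others for both. mt-Tp (94.8), mt-Tq (91.7) and mt-Tn (29.4) were lower.

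The share of reads by cell stage was read from 13 lists of marker genes. A summed share measures the RNA of a list, and more cells of a type cannot be told apart from more RNA per cell. Whole testis also does not show in which stage the RNA of a list lies. Of the germ-cell lists, that of the latest stage held the most. Undifferentiated spermatogonia (14 genes) held 0.00863% ± 0.00100 of the reads (SD, n = 3), differentiating spermatogonia (10) 0.0991% ± 0.0133, leptotene and zygotene spermatocytes (14) 0.126% ± 0.0204, pachytene and diplotene spermatocytes (16) 0.860% ± 0.487, round spermatids (21) 0.432% ± 0.0106 and elongating and elongated spermatids (20) 7.34% ± 0.301. Only the pachytene and diplotene list broke the increase from stage to stage, and it did so in WT2 and WT3 alone. It took 1.16% in WT2 and 1.12% in WT3 but 0.299% in WT1, where the round spermatid list took 0.444%. Its mean without WT1 was 1.14%. Ldhc held 53.1% of the list. Without Ldhc the mean over the 3 animals was 0.402%, below the round spermatid list. In WT2 and WT3, however, the list without Ldhc was still above the round spermatid list.

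The somatic lists were lower. Sertoli cell markers (20 genes) held 0.172% ± 0.00836 of the reads, Leydig cell markers (13) 0.113% ± 0.0179, peritubular myoid markers (9) 0.0380% ± 0.0108, red blood cell markers (6) 0.0277% ± 0.00367, macrophage markers (11) 0.0112% ± 0.00197 and endothelial markers (8) 0.00447% ± 0.000395. Markers of the epididymis, the duct beside the testis, held 0.000885% ± 0.000486, and 7 of its 10 genes (Lcn5, Lcn8, Lcn9, Cst11, Ovch2, Spag11b and Adam28) had no read in any animal. The lists differ in size and in the level of their genes, so that their shares are not shares of cells. Izumo1 of the round spermatid list and Insl3 of the Leydig cell list were not analysed here.

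**Figure D2:**
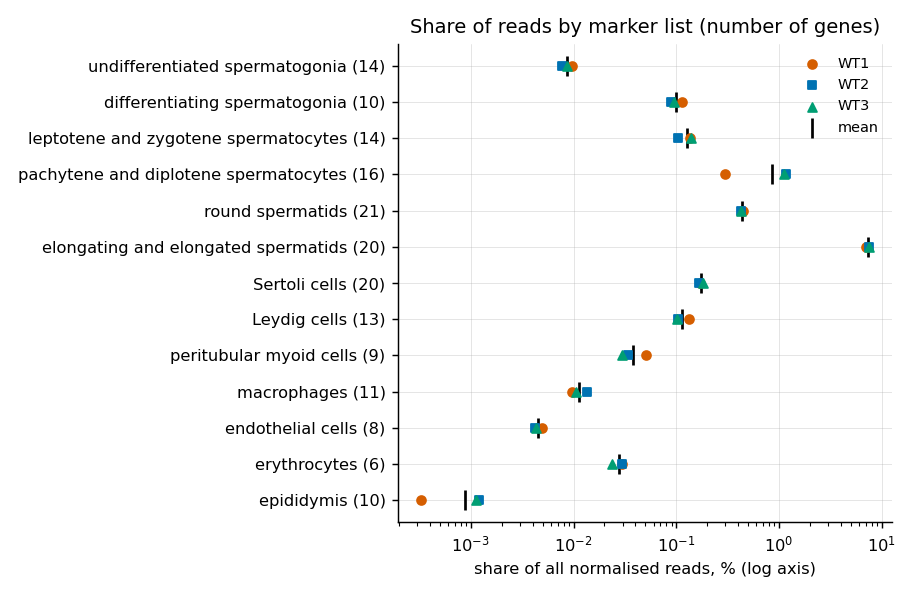
Share of all normalised reads in % (horizontal log axis) held by each of 13 marker lists, with the number of measured genes in brackets. Symbols stand for the 3 animals and black bars for the mean. Elongating and elongated spermatid genes lead at 7.34%, WT1 is below the others for pachytene and diplotene spermatocytes (0.299% against 1.16% and 1.12%), and the epididymis list is lowest.

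Genes of undifferentiated spermatogonia had a median level of 7.98 normalised reads, near the limit of detection. Id4, a regulator kept in the stem cell pool, held 54.5, 94.5 and 93.7 normalised reads, and Taf4b, a subunit of the transcription machinery, 68.1, 71.4 and 74.3. Sohlh1, a transcription factor of early spermatogonia, held 83.0, 39.6 and 43.4, and Gfra1, the GDNF receptor of the stem cells, 53.2, 44.4 and 52.1. Of the 14 genes, 6 had a mean of at least 10, and Nanos2, an RNA-binding protein of the stem cells, had 1 read in WT1 and none in the others. For differentiating spermatogonia, Dmrtb1, which controls the entry into meiosis, held 3791, 2704 and 2360 and made up 73.0% of the list. Without it the list fell to 0.0269% of the reads. Dazl, an RNA-binding protein of germ cells, had a mean of 440 ± 144 and Ccnd2, a cyclin, of 299 ± 87.0. Kit, the receptor that marks differentiating spermatogonia, held 14.9, 20.3 and 29.9.

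All 14 genes of leptotene and zygotene spermatocytes had a mean of at least 10. Smc1b, a meiotic cohesin, had a mean of 1229 ± 229 normalised reads, and the synaptonemal complex genes Sycp2 and Sycp1 of 1162 ± 397 and 1070 ± 135. Spo11, which makes the DNA breaks of meiosis, held 7.43 and 2.89 in WT1 and WT2 and 71.4 in WT3. In the pachytene list, Ybx2, which binds and stores germ-cell mRNA, followed Ldhc with 11.1, 5124 and 4592. Ccna1, the cyclin of the meiotic divisions, held 49.5, 729 and 523. WT1 was at least 8-fold below both other animals for Ldhc, Ybx2 and Ccna1. Other genes of the list were close in all 3 animals: Hspa2, a heat shock protein of spermatocytes, held 2476, 3191 and 3416, Piwil1, a partner of piRNAs, 2913, 2188 and 2985, and Clgn, a testis chaperone of the endoplasmic reticulum, 1787, 1892 and 2266. Hist1h1t, the linker histone of spermatocytes, was lowest with 2, 7 and 6 reads. The libraries hold polyadenylated transcripts, and whether those of Hist1h1t carry a poly(A) tail was not resolved here.

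All 21 measured round spermatid genes lay above the limit of detection in the 3 animals, and their sum varied least of all lists. Tssk2, a testis-specific serine kinase, had a mean of 3179 ± 603 normalised reads, Actl7b, an actin-like protein of spermatids, of 2348 ± 284 and Tssk1 of 1634 ± 159. Crem, the activator of spermatid genes named above, held 108, 585 and 269. In the elongating and elongated list, all 20 genes were above the limit in each animal, and Prm1, Tnp1 and Prm2 were highest. Oaz3, the germ-cell antizyme, held 11673, 8504 and 4200, and Smcp, a protein of the mitochondrial capsule, 4845, 7460 and 10405. Oaz3 was thus highest in WT1 and lowest in WT3, and Smcp the reverse. Akap4, the main protein of the fibrous sheath of the tail, held 45.8, 2573 and 2174, and its partner Akap3 held 45.8, 229 and 1723. WT1 was low for both, and WT2 was low for Akap3 alone.

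Among Sertoli cell genes, Clu, clusterin, had a mean of 2449 ± 731 normalised reads, and the cystatins Cst9 and Cst12 of 828 ± 127 and 763 ± 38.1. Sox9, the factor that sets Sertoli cell fate, held 144, 114 and 166. Amh, the hormone of immature Sertoli cells, and Fshr, the receptor of follicle-stimulating hormone, had no read in any animal, which allows up to 3 reads per library. For Leydig cells, the androgen synthesis enzyme Cyp17a1 held 2631, 1202 and 1138, Fabp3, a fatty acid-binding protein, 1009, 634 and 628, and Cyp11a1, which opens steroid synthesis, 519, 414 and 326. WT1 was highest for these 3 genes. Star, which brings cholesterol into mitochondria, held 149, 326 and 320, and Hsd3b6, Hsd3b1, Fdx1 and Sult1e1 were also lowest in WT1, so that the list had no common direction. Lhcgr, the receptor of luteinising hormone, had 7 reads in WT2 and none in the others.

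For peritubular myoid cells, Mylk, a myosin kinase, had a mean of 572 ± 262 normalised reads, Actg2, a smooth muscle actin, of 425 ± 11.4 and Acta2 of 237 ± 58.9, while Tagln had at most 3 reads. Lyz2 (104 ± 48.3), Csf1r (87.3 ± 30.2) and C1qb (68.0 ± 5.84) led the macrophage genes, and Egfl7 (109 ± 15.7), Kdr (45.8 ± 10.8) and Vwf (9.33 ± 8.09) the endothelial genes, where Pecam1 and Tie1 had at most 2 reads. Globin transcripts of red blood cells had means of 415 ± 129 for Hba-a1, 303 ± 96.8 for Hbb-bs and 298 ± 61.3 for Hba-a2, while Alas2 and Slc4a1, genes of red cell precursors, had no read. Rnase10 (19.9 ± 17.3), Defb21 (11.6 ± 2.59) and Crisp1 (4.18 ± 3.90) were the epididymis genes with reads.

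Gene families gave a second view of what the reads were spent on. Protamines and transition proteins, 5 genes in all, took 6.00% ± 0.253 of the reads (SD, n = 3). The 80 cytosolic ribosomal protein genes took 2.93% ± 0.350, led by Rps20 (9145, 2008 and 4777 in WT1, WT2 and WT3), Rpl37 (mean 5228) and Rps14 (6926, 3896 and 1981). Without WT1, Rpl37 (4619) and Rps29 (3959) were above Rps20 (3392) and Rps14 (2939). The 31 mitochondrially encoded genes took 2.41% ± 0.115, and the 96 nuclear genes of the respiratory chain and ATP synthase 1.72% ± 0.111, led by Uqcrq (3875), the testis form Cox8c (3701) and Ndufa2 (2130). Protamines and transition proteins thus took more reads than the ribosomal protein genes and the mitochondrially encoded genes together, with the nuclear respiratory genes left out.

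Folding and breakdown of proteins followed. Heat shock and DNAJ genes (68) took 1.13% ± 0.0656, led by Dnajb3 (7562), Hspa4l (4235) and Hspb9 (4097). Hsp90aa1 is not among the 68, so that this share leaves it out, and its mean (14262) was above that of Dnajb3. The 8 chaperonin genes took 0.288% ± 0.0140, led by Cct7 (3765), Cct3 (1906) and Cct8 (1273). Tcp1 is not among the 8, and the row inside it, Gm26130, had a higher mean (6774) than Cct7. Proteasome subunits (49) took 0.728% ± 0.0493, led by Psmc3 (5121), Psmd8 (2245) and Psma6 (2195), and ubiquitin-conjugating enzymes (38) 0.368% ± 0.0391, led by Ube2j1 (1893), Ube2d3 (1858) and Ube2k (1408). A mean of at least 10 was reached by 64 of the 68 heat shock and DNAJ genes and by 47 of the 49 proteasome subunits. TRIM proteins (66), many of them ubiquitin ligases, took 0.178% ± 0.0110, led by Trim37 (1889), Trim28 (1222) and Trim80 (706). The 47 SLC25 carriers of the inner mitochondrial membrane took 0.0878% ± 0.00810, led by Slc25a33 (287), Slc25a31 (285) and Slc25a46 (284).

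The sperm tail was served by several families. Outer dense fibre, fibrous sheath and mitochondrial capsule genes (16) took 0.905% ± 0.192, led by Smcp (7570), Odf1 (6235) and Ropn1l (5710), and tubulins (19) 0.639% ± 0.0793, led by Tuba3b (10260), Tuba3a (6848) and Tubb4b (5098). Cilia and flagella associated proteins (26) took 0.278% ± 0.0196, led by Cfap206 (3350), Cfap36 (1323) and Cfap45 (897). Kinesins (44, counted with the kinesin-associated protein Kifap3) took 0.263% ± 0.00691, led by Kifap3 (1626), Kif2b (1475) and Kif3b (1234). Kifap3 held 2271, 1358 and 1249 in WT1, WT2 and WT3 and Kif2b 1426, 1386 and 1612, so that Kifap3 was higher in WT1 alone. Axonemal dyneins (19) took 0.138% ± 0.0213, led by Dnali1 (1447), Dnah8 (1289) and Dnah14 (789). Tektins (5), which brace the tail microtubules, took 0.117% ± 0.0196, led by Tekt1 (1884), Tekt4 (1147) and Tekt5 (688). The CatSper calcium channel of the tail (9 genes) took 0.144% ± 0.0144, led by Catsperz (3384), Catsperd (660) and Catsper2 (502). Among tail proteins, the mitochondrial capsule and fibre family showed the widest spread, with 0.721%, 0.890% and 1.10% in the 3 animals.

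Other families belong to the spermatid head and to germ-cell regulation. Spata genes (28) took 0.838% ± 0.110, led by Spata33 (10566, 4175 and 3962 in WT1, WT2 and WT3), Spata24 (4687) and Spata19 (3583). Tex genes (31) took 0.299% ± 0.0164, led by Tex33 (2520), Tex43 (2916, 1462 and 1224 in WT1, WT2 and WT3) and Tex37 (885). Histones (99) took 0.460% ± 0.0150, led by Hils1 (4820), the linker histone of elongating spermatids, H3f3b (3012) and H1fnt (2514), a further spermatid linker histone. Histone transcripts without a poly(A) tail would be missed by the 3′ method. The germ granule and piRNA genes (25) took 0.395% ± 0.0209, led by Mael (4580), Piwil1 (2696) and Gtsf1l (1716). Testis-specific serine kinases (6) took 0.269% ± 0.0260, led by Tssk6 (4332), Tssk2 (3179) and Tssk3 (1770). ADAM proteases (31), of the sperm surface among others, took 0.255% ± 0.0185, led by Adam5 (4203), Adam3 (1895) and Adam32 (1049), PRSS proteases (39) 0.189% ± 0.0185, led by Prss39 (1926), Prss37 (1020) and Prss54 (992), and acrosome genes (10) 0.167% ± 0.0202, led by Spaca9 (1471), Acrv1 (1314) and Spaca3 (1026). All 4 profilins, which deliver actin for filament growth, were measured. Pfn3 had a mean of 449 ± 124, Pfn2 held 135, 537 and 549, Pfn4 held 105, 182 and 226, and Pfn1, the common form elsewhere, held 2.48, 57.9 and 49.2. WT1 was lowest for the 3 profilins other than Pfn3 and highest for Pfn3.

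Germ-cell forms of enzymes and structural proteins were then set against their somatic relatives within each animal, as the log2 ratio of (normalised reads + 1). Of 33 measured pairs, the germ-cell form was higher in all 3 animals in 20 and the somatic form in 7, and 6 differed in direction between the animals. Without WT1, these counts were 23 and 8. In Tubb4b/Tubb5, Hk1/Hk2 and Cfl1/Cfl2 neither form is limited to germ cells. The authors removed pseudogenes from the counts, and whether reads of either form were placed on pseudogenes was not tested.

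In sugar metabolism the germ-cell form was higher in all 3 animals in 4 pairs and the somatic form in 2. Gapdhs, the glyceraldehyde phosphate dehydrogenase of sperm, held 5149, 4093 and 5070 normalised reads against 22.3, 14.5 and 13.5 for Gapdh, a log2 ratio of 8.10 ± 0.332 (SD, n = 3). Gapdh, which was the reference gene of the PCR assays in the paper, thus ranked at 12342 in these libraries. Whether its row misses reads of the gene was not tested. Pgk2 held 4294, 3382 and 2828 against 6.19, 61.7 and 56.0 for Pgk1, a ratio of 6.87 ± 2.04, or 5.69 without WT1. Ldhc exceeded Ldha by 4.65, 3.63 and 3.72 in WT1, WT2 and WT3 although both were low in WT1, and Pdha2 exceeded Pdha1 by 3.91 ± 0.839. Aldoa was above Aldoart1 (log2 ratio -2.75 ± 1.23), and Hk2 above Hk1 (-2.16 ± 0.989). The respiratory forms Cox8c (3.60 ± 0.144) and Cox6b2 (1.84 ± 0.859) exceeded Cox8a and Cox6b1, while Cyct/Cycs (0.27 ± 1.14) and the carriers Slc25a31/Slc25a4 (0.22 ± 0.221) went both ways.

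Chaperones showed both directions. Hspa8 held 14.9, 341 and 278, so that Hspa2 exceeded it by 4.71 ± 2.24, or by 3.42 without WT1. Clgn exceeded Canx by 2.40 ± 1.42, but Calr exceeded Calr3 (-2.36 ± 0.959) and Pdia3 exceeded Pdilt (-0.54 ± 0.239). Among structural genes, Cetn1 exceeded Cetn2 by 5.85 ± 0.367, Tubb4b exceeded Tubb5 by 3.79 ± 0.0628, Tuba3a exceeded Tuba1b by 3.49 ± 0.107 and Capza3 exceeded Capza1 by 2.14 ± 0.529. The actin pair Actl7b/Actb was near equal (0.06 ± 0.284). Pfn3 exceeded Pfn1 by 4.34 ± 2.67, or by 2.80 without WT1, while Pfn2 exceeded Pfn4 (-1.06 ± 0.628), and Cfl2, a cofilin that severs actin filaments, exceeded Cfl1 by a wide margin (-4.33 ± 0.248).

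Of regulators, Tbpl1 exceeded Tbp by 4.19 ± 3.12 (2.75 without WT1), Ppp3r2 exceeded Ppp3r1 by 3.18 ± 0.290 and Psma8 exceeded Psma7 by 0.36 ± 0.111. Ybx2/Ybx1 (-2.33 ± 4.15) and Pabpc2/Pabpc1 (-0.64 ± 0.816) went both ways. The Ybx2 value rested on WT1: Ybx1 held 1626, 3237 and 6933, and the log2 ratio was -7.07 in WT1, 0.66 in WT2 and -0.59 in WT3, with a mean of 0.034 without WT1. The wide SD of the Tbpl1 pair came from the somatic form, since Tbp held 4.95, 460 and 31.9 while Tbpl1 held 796, 840 and 817.

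The somatic form lies on the X chromosome, which is silenced in spermatocytes, in 9 pairs. In 7 of these the autosomal germ-cell form was higher in all 3 animals: Pgk2, Pdha2, Cetn1, Rpl10l (4.96 ± 0.173 over Rpl10), Rpl39l (4.08 ± 0.763 over Rpl39), Ubl4b (3.94 ± 0.952 over Ubl4a) and Rbmxl2 (3.77 ± 1.19 over Rbmx). Fam50b exceeded Fam50a in WT2 and WT3 (513 against 9.65, and 573 against 12.6) but not in WT1 (6.19 against 19.8). Cstf2 was above its autosomal copy Cstf2t in all 3 animals, with 303, 208 and 226 against 19.8, 164 and 165.

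**Figure D3:**
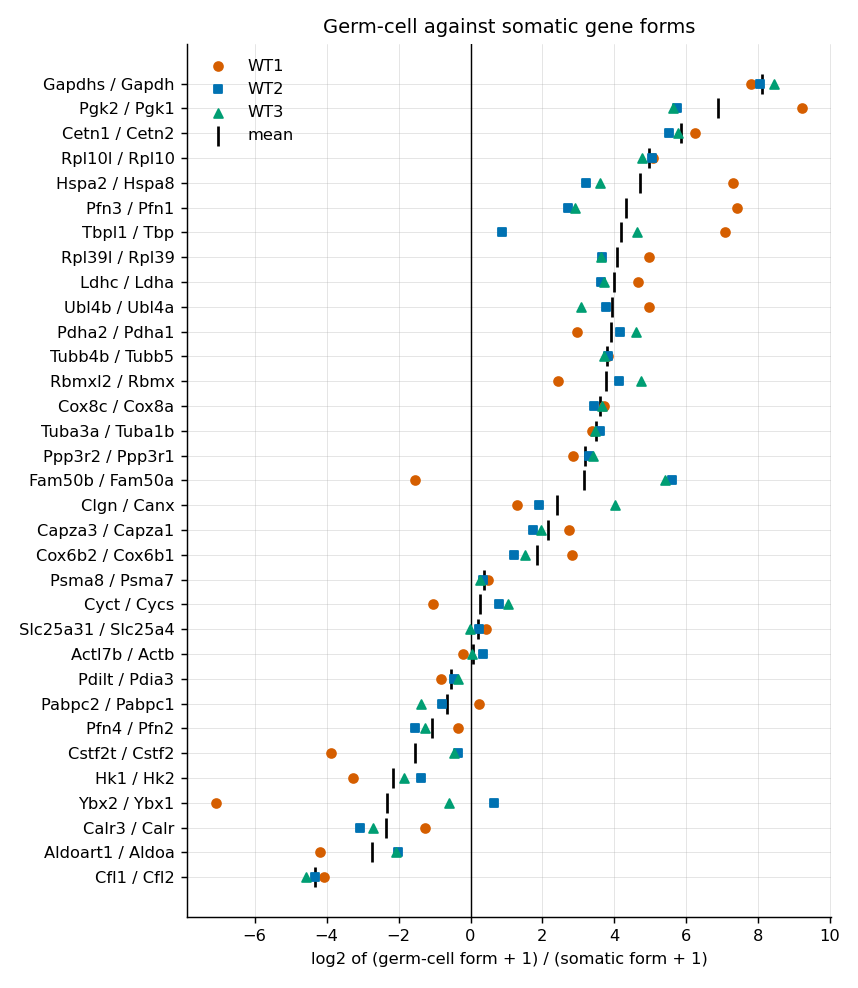
Log2 ratio of germ-cell form to somatic form, each plus 1 normalised read (horizontal axis), for 33 gene pairs in order of the mean. Symbols stand for the 3 animals, black bars for the mean, and the vertical line marks equal levels. The ratio lies right of the line in all 3 animals in 20 pairs, led by Gapdhs/Gapdh. Fam50b/Fam50a is left of it in WT1 alone, and Ybx2/Ybx1 in WT1 and WT3.

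By chromosome, the X took 1.20%, 1.59% and 1.53% of the reads while holding 4.25% of the protein-coding genes. Of its 894 coding genes, 52.6% had a mean of at least 10 normalised reads, against 57.7% on the autosomes. The median level of those genes was 42.2 on the X and 86.3 on the autosomes. By the mean of all 3 animals, no X-linked gene was among the 100 highest of the testis, and 13 were among the 1000 highest. The highest X-linked gene was 4930570D08Rik with 2097, 3795 and 4215, which rose from rank 119 to rank 81 without WT1. It was followed by Tmsb15a, a thymosin, with 2255, 2937 and 1865 and by Cypt1, a cysteine-rich protein of the spermatid nucleus, with 2100, 1898 and 1682. Akap4 and Cypt3 (1247, 1751 and 1330) were next. Of these 5 genes, Akap4 was the only one with WT1 at least 8-fold below the others.

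The Y chromosome took 0.0159%, 0.0294% and 0.0279% of the reads, and 16 of its 168 coding genes (9.52%) had a mean of at least 10. Gm29277 (122 ± 43.3) and Gm29089 (119 ± 45.3) were highest, followed by Erdr1 (72.4 ± 13.5), the zinc finger gene Zfy2 (49.8 ± 6.84) and the helicase Ddx3y (47.5 ± 3.74). Y genes occur in near-identical copies, and 2 of them, Gm21379 and Rbm31y, held the very same 24, 47 and 43 reads, so that values of single copies are uncertain. Chromosome 17 took the largest share of any chromosome, 8.86% ± 1.23, of which the 3 non-coding genes described above are a part. Chromosome 11 took 7.62% ± 0.0636, and chromosome 16, with 3.00% of the coding genes, took 6.91% ± 0.242. Without the 10 highest genes of the testis, chromosome 16 fell to 2.94% and chromosome 17 to 6.16%.

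The spread between the animals was compared with what counting alone would give, where the recovered counts were taken as sequenced reads. A chi-square dispersion test of the recovered reads, with Benjamini-Hochberg adjustment over 13905 genes, called 8788 genes, a background of 63.2%, as varying beyond counting noise at an adjusted p under 0.05. Between WT2 and WT3 alone it called 3072 of 13994 genes (22.0%). The biological coefficient of variation (edgeR's common estimate) was 0.522 with all 3 animals and 0.304 without WT1. Leaving out WT2 or WT3 gave 0.615 or 0.619. The spread was thus lowest without WT1. With 1 library per animal, differences between the mice and between their libraries cannot be told apart, and p-values measure only the spread between these libraries.

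The spread was above counting noise at every level. Genes with a mean of 10 to 100 normalised reads had a median coefficient of variation (CV) of 32.8%, where counting alone would give 17.4%. For 100 to 1000 the median was 25.5% against 6.84%, and for the 755 genes of the next level up it was 22.0% against 2.56%. Of 5830 genes with a mean of at least 100, 781 had a CV under 10%, 1051 over 50% and 114 over 100%. In the cell type lists, the test called 21 of 21 round spermatid genes, 20 of 20 elongating and elongated spermatid genes, 10 of 15 pachytene and diplotene genes, 10 of 14 leptotene and zygotene genes, 13 of 18 Sertoli cell genes and 10 of 12 Leydig cell genes. It called 4 of 6 genes of undifferentiated and 5 of 10 of differentiating spermatogonia, 5 of 8 of peritubular myoid cells, 7 of 9 of macrophages, 0 of 2 of endothelial cells (also 0 at an unadjusted p under 0.05), 4 of 4 of erythrocytes and 1 of 2 of the epididymis. High genes reach the threshold at smaller differences, and these shares, 9 above and 4 below the background of 63.2%, are not corrected for level.

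**Figure D4:**
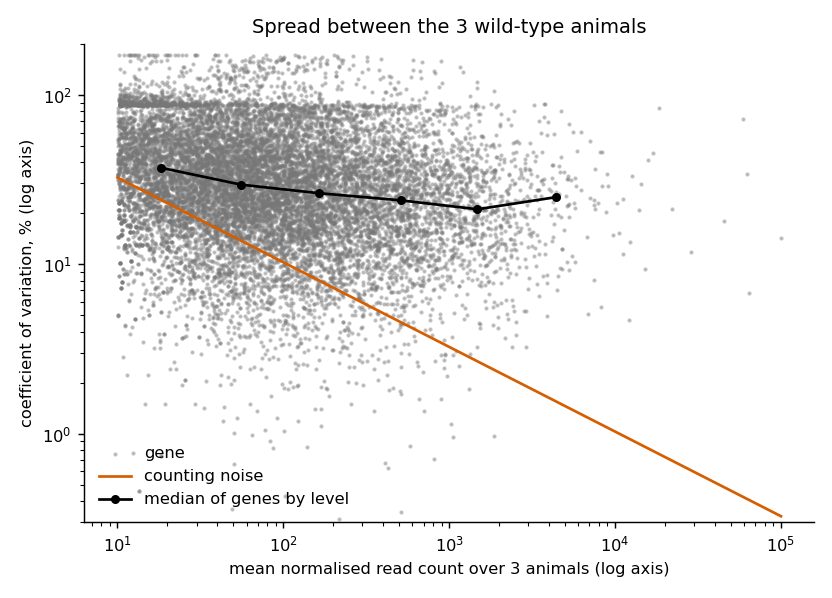
Coefficient of variation over WT1, WT2 and WT3 in % (vertical log axis) against the mean of normalised reads (horizontal log axis) for 13905 genes (grey points). The black line joins medians of genes grouped by level, and the orange line shows the spread that counting alone would give. The medians stay above 20% at every level drawn, and a band of points lies near the value of a gene absent from 1 animal and equal in the others.

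The steadiest genes with a mean of at least 100 were 0610037L13Rik with 217, 216 and 215 normalised reads (CV 0.315%), Enah, an actin regulator, with 509, 511 and 508 (0.345%) and the antisense gene Usp46os1 with 103, 103 and 102 (0.426%). Epb41l2, Ppt1, Gng5, Wsb2, Rab2a, Ik and Ube2d3 followed with CVs of 0.624% to 0.962%. They are the lowest of 5830 genes and were chosen for this value, which is given as a description.

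The most variable genes were present in 1 animal and nearly absent from the others. 1700120K04Rik held 354, 0 and 0 normalised reads, and Gm37206 held 0, 605 and 0. Psap, prosaposin of the lysosome, held 4.95, 2.89 and 778, Kif20a, a kinesin of cell division, 0, 365 and 3.86, and 1700020L24Rik 2.48, 7.72 and 621. Cfap161, a flagellar protein, held 500.2, 4.82 and 4.83, and Prrc2a 7.43, 1.93 and 393. Anapc11, a subunit of the ubiquitin ligase of mitosis, held 3.71, 939 and 20.3, Ccdc71 295, 1.93 and 5.79, and 2200002D01Rik 362, 4.82 and 4.83. No animal was the high one throughout, since WT1 was high for 4 of these 10, WT2 for 3 and WT3 for 3.

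At several of these places an overlapping gene on the opposite strand had another high animal. Rnf40, which overlaps 1700120K04Rik, held 83.0, 697 and 686 normalised reads, Yif1b, which overlaps 2200002D01Rik, 38.4, 454 and 399, and Mmp28, which overlaps 1700020L24Rik, 1118, 678 and 0. Cdc23, which overlaps Kif20a, held 0, 56.0 and 360. In the first 3 the high animal of 1 gene was the low animal of its partner. Rbm4b, which overlaps Gm37206, held 2451, 2959 and 1454, with WT2 highest for both. Gm23442 at Prrc2a had no read, and Klhdc8b at Ccdc71 held 0, 20.3 and 0.966. Psap, Cfap161 and Anapc11 overlap no listed gene. The part of read assignment between overlapping genes in these values was not tested.

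A larger group of genes was low in WT1 alone. A gene was counted here where its mean was at least 100 and 1 animal lay at least 8-fold from the nearer of the others, which lay within 3-fold of each other (limits chosen after the values were seen). By this rule 278 of 5830 genes (4.77%) were low in WT1. Only 21 were high in WT1, 16 were low and 10 high in WT2, and 19 were low and 13 high in WT3. The 278 genes stood at a median of 4.22% of their mean in WT2 and WT3 (quartiles 1.82% and 7.34%). They took 0.188% of the reads of WT1 against 4.82% and 4.57% in WT2 and WT3, and 35 of them were at or under 3 reads in WT1.

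The group held genes of many functions. Beside Ldhc, Ybx2 and Akap4, it was led by Dynll2, a dynein light chain (567, 5010 and 5620 normalised reads), Gpd2, the mitochondrial glycerophosphate dehydrogenase (182, 3468 and 3694), Acot7, an acyl-CoA thioesterase (11.1, 3146 and 2757) and Spert, a spermatid protein (52.0, 2791 and 2939). Ppp1cc, the phosphatase whose testis form is needed for sperm (32.2, 2310 and 1970), and Stag3, the meiotic cohesin (57.0, 1277 and 1217), were among them. Common genes were too, such as Rps9 of the small ribosomal subunit (76.8, 1405 and 1175), Cox7c of the respiratory chain (137, 2051 and 1695), Ppia, cyclophilin A (22.3, 857 and 728) and Gabarap of autophagy (28.5, 1032 and 923). In the marker lists, Amhr2 (6.19, 589 and 535) and Rhox5 (16.1, 206 and 174) of Sertoli cells and Fdx1 (31.0, 520 and 446) of Leydig cells were low in WT1, so that germ-cell and somatic lists both held members of the group.

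The 278 genes were spread over 20 chromosomes, with the highest shares on chromosome 7 (38 of 431 genes, 8.82%) and on the X (10 of 116, 8.62%). Protein-coding genes made up 95.3% of them and 92.9% of the other genes at this level, and the median of the longest transcript was 2365 against 2888 bases. Overlap with another listed gene was no more common among them (41.7%) than among genes with no animal apart (46.2%). The next gene along the chromosome was also low in WT1 in 21 of 277 cases (7.58%), against 4.77% of all genes at this level. Among genes at this level, the longest run joined 4 neighbours on chromosome 7, between 46796103 and 46919969: Gtf2h1, a subunit of transcription factor TFIIH (3.71, 707 and 702), Ldha (31.0, 2333 and 1947), Ldhc (799.8, 28984 and 25592) and Tsg101, which sorts proteins for breakdown (11.1, 155 and 134). Their neighbours were close in all animals, with 54.5, 64.6 and 45.4 for Hps5 before them and 11.1, 13.5 and 10.6 for Uevld and 2882, 3708 and 3300 for Gm9999 behind them.

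**Figure D5:**
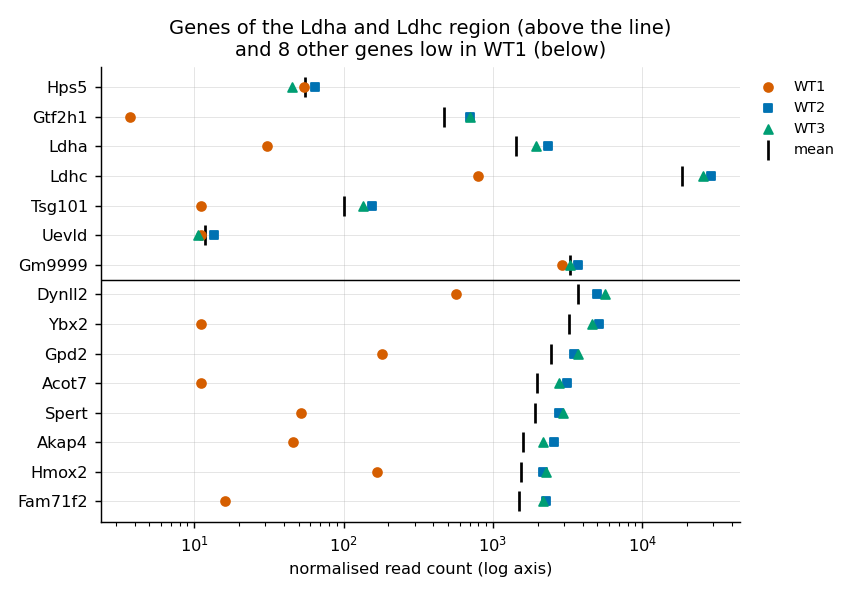
Normalised reads (horizontal log axis) in WT1, WT2 and WT3 (symbols) with their mean (black bars). Above the line stand the genes around Ldha and Ldhc on chromosome 7 whose mean reached 10, in their order, and below it the 8 highest other genes that were low in WT1. Gtf2h1, Ldha, Ldhc and Tsg101 are low in WT1 while Hps5, Uevld and Gm9999 are not.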

How the data were processed

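Testis RNA of 3 WT mice was sequenced by the authors as QuantSeq 3′ libraries with reads of 50 bases. The authors trimmed the reads (Trim Galore 0.4.5), aligned them to GRCm38 (HISAT2 2.1), assembled and counted genes (StringTie 1.3.3 and its count script, which derives counts from coverage), removed pseudogenes by their annotated type (some rows without a type, such as Tes3-ps, remain) and deposited a signal per gene, the count over a size factor from DESeq2 that is 1 number for each animal. Every nonzero deposited value was a whole multiple of the smallest value of its column (tolerance 1e-06), which gave whole counts, called reads here. Because they derive from coverage, these counts need not equal sequenced reads. Of 38674 genes, 38509 were matched to GENCODE M21 (GRCm38), and 23282 carry a locus name from the merged assembly, in which neighbouring genes can be joined.

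Means, SDs and shares were computed with Python 3.11.15, pandas 2.3.3 and scipy 1.17.1, and biological variation with edgeR 4.0.16 on the recovered reads (R 4.3.3). The dispersion test was a chi-square test per gene of reads against size factors, for genes with a mean of at least 10, and was tested on simulated data. Named genes were the 25 highest, the 5 highest of each non-coding type, of the X and of the Y, the 3 highest of each list or family, list members without reads, all pairs, and the 10 most and least variable with a mean of at least 100; genes low in WT1, opposite-strand neighbours and others named for their pattern or role were chosen after their values were seen. The lists and members were chosen with earlier results of these data known. Of the 25 highest genes 1, and 1 of the pairs, are not reported here. Alternatives were other minimum means, scalings, pseudocounts, rankings and leaving out each animal.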

Additional observations from a re-analysis of the deposited data

How the results depend on the processing

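Of 154 recomputed values that answer a comparison, 121 stayed within their limits (1 SD between the animals, or 1.5 times a count) and 33 did not. The number of genes varying beyond counting noise was 4880 with a minimum mean of 100 and ranged from 3072 to 7669 when each animal was left out, with the lowest value without WT1; other minimum means, both scalings and summed loci left it between 8045 and 9387. The biological coefficient of variation ranged from 0.304 to 0.619 over the same omissions, and was 0.304 without WT1. Ranking per kilobase, added after seeing the data, moved the share of the 10, 100 and 1000 highest genes to 9.50%, 21.8% and 53.0%.

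Without the 10 highest genes, coding genes took 93.7%, lncRNAs 4.90%, TEC genes 0.404%, microRNA genes 0.0874%, and chromosomes MT, 11, 16 and 17 took 2.09%, 8.53%, 2.94% and 6.16%. Without its highest member, the share of a list was 0.00663% for undifferentiated and 0.0269% for differentiating spermatogonia, 0.0960% for leptotene and zygotene spermatocytes, 0.355% for round and 4.86% for elongating and elongated spermatids, 0.112% for Sertoli, 0.0726% for Leydig and 0.0240% for peritubular myoid cells, 0.00869% for macrophages, 0.00178% for endothelial cells, 0.0175% for erythrocytes and 0.000388% for the epididymis; the pachytene and diplotene list fell to 0.402%, within its wide SD.

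The limits that set 1 animal apart were varied after the data were seen. Genes low in WT1 numbered 443 and 162 at 4-fold and 16-fold, and 159 with a minimum mean of 200. All other patterns together numbered 79, against 138 and 40 at these folds, 139 with a minimum mean of 50 and 41 with 200. Low in WT1 thus remained the most common pattern in these settings. The cause of these moves was not tested beyond the genes that each setting leaves out. No paired analysis was possible because animals of only 1 genotype were described and no groups were compared. With 3 animals, an SD is itself known only roughly.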

Other observations

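Large gene families known from other tissues were mostly low. Of 1131 olfactory receptor genes, 271 had a read and 16 (1.41%) had a mean of at least 10 normalised reads, and a single one, Olfr77, held 770, 531 and 415 in WT1, WT2 and WT3, far above Olfr128 (76.3 ± 7.59, SD, n = 3) and Olfr112 (60.7 ± 6.73). Of 332 vomeronasal receptor genes, 2 reached this level, Vmn1r181 (58.9 ± 16.9) and Vmn2r57 (mean 53.7), with Vmn2r71 next at 8.69 ± 7.66. Among 53 keratins, Krt88 held 1171, 549 and 636, while Krt10 (40.6 ± 26.6) and Krt8 (17.7 ± 3.59) were the only others above 10. Of 42 beta-defensins, 7 passed, led by Defb19 (1601 ± 175), Defb33 (517 ± 240) and Defb36 (497 ± 160). Olfr77, Krt88 and Defb19 each led their family in all 3 animals.

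Genes known only by a number or a cDNA name were a large part of the transcriptome. Names ending in Rik (2468 genes) took 5.82% ± 0.0891 of the reads, led by 2610318N02Rik (5268 ± 999), 1700027A15Rik and the X-linked 4930570D08Rik, and Gm names (12961 genes) took 4.89% ± 1.17, led by Gm42418, Gm5617 and Gm8797 (7433 ± 1779). Of those with a mean of at least 10, 393 of 1089 Rik names and 290 of 1087 Gm names were typed as protein-coding.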
